A study of Mus musculus with 8 samples.

Results

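The genes described here are those of the semaphorin, ephrin, Slit and netrin guidance systems of the mouse, ligands and receptors together. They were taken by symbol, with a pattern covering Sema3 to Sema7, the plexins (Plxn), Nrp1 and Nrp2, the EphA and EphB receptors, the ephrins (Efna, Efnb), Slit1 to Slit3, Robo1 to Robo4, the netrins (Ntn) and Unc5, and 58 of the 13540 genes of the table matched. Among the 58 is Unc50, which matches by its letters alone: it encodes a Golgi membrane protein and not a netrin receptor. The other 57 are 18 semaphorins, 8 plexins, 2 neuropilins, 5 ephrins A, 3 ephrins B, 4 EphA and 5 EphB receptors, 3 Slits, 4 Robo receptors, 3 netrins and 2 UNC5 receptors. Every gene of the table reaches 1 RPKM in at least 1 stage (RPKM divides a gene's reads by its length in kilobases and by the depth in units of 1000000 reads), so each member also passed that minimum. Family members outside the table, such as Sema3d, Sema4f, Epha3, Epha5, Plxnb3, Unc5a, Unc5d and Ntn5, and the netrin receptor Dcc were not analysed here.

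Messenger RNA was measured in undifferentiated mouse ES cells (129/Ola) and in the cultures made from them at 3 later stages of directed heart differentiation. The stages are ESC (embryonic stem cells, day 0), MES (mesodermal cells, day 4), CP (cardiac precursors, day 5.3) and CM (cardiomyocytes, day 10). The labels give 1 protocol for all stages: embryoid bodies in serum-free IMDM and Ham's F12 with BSA, GlutaMax, B27, N2, ascorbic acid and monothioglycerol, then reaggregation with human VEGF, Activin A and BMP4, then plating in StemPro-34 with VEGF, basic FGF and FGF10. They do not say which steps the ESC cultures went through, and no genetic change is named for any stage. Each stage has a pair of biological duplicates, 8 libraries in all, but the table holds 1 RPKM value per stage, so no spread between replicates, SD or p-value can be given. Where 4 values stand in a row, they are those of ESC, MES, CP and CM in this order. Depths of 75.3, 62.0, 64.8 and 88.5 M reads (M stands for 1000000) were recovered from the steps between the values, and whole reads for all 58 members. The lowest read count of a member at any stage was 8, for Sema3c in MES, with 0.0519 RPKM and a 95% Poisson interval of 0.0224 to 0.102 RPKM. Intervals cover counting error only. In these bulk cultures fewer cells of a type and less RNA per cell cannot be told apart.

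The stages carried the markers of their labels. Summed over 7 pluripotency genes, there were 2109, 89.8, 14.6 and 3.07 RPKM across ESC, MES, CP and CM, and the 8 primitive streak and mesoderm genes summed to 7.61, 402, 8.59 and 1.99 RPKM. The 9 cardiomyocyte genes summed to 14.0, 11.0, 1102 and 9493 RPKM. Genes that mark other cell types were measured too. The 12 endothelial genes summed to 42.2, 76.2, 423 and 205 RPKM, but in MES 63.2 RPKM of the sum was Kdr, and over ESC only Kdr was at least 2-fold up and 4 were down. The 9 blood genes in the table, of 10 listed, summed to 3.30, 8.75, 285 and 12.7 RPKM. Acta2, the smooth muscle actin that fibroblasts can also express, stood at 131, 1.96, 498 and 1944 RPKM.

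Guidance molecules steer growing axons, migrating cells and sprouting vessels. Semaphorins act through plexins, and most secreted class 3 semaphorins bind a neuropilin as the ligand-binding subunit. Ephrins are bound to the membrane, the A type by a lipid anchor and the B type by a transmembrane segment, and signal into both the Eph-bearing cell and their own cell. Slits are large secreted ligands of Robo receptors, and netrins bind DCC, neogenin and UNC5 receptors. In the heart and its vessels these systems are known for outflow tract septation (SEMA3C with NRP1 and PLXND1), for the arterial and venous identities marked by EFNB2 and EPHB4, and for the shaping of the heart tube and valves by Slits and Robos.

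Most guidance genes were low in ESC and higher by the mesoderm stage. On the log2(RPKM + 1) scale, 36 of the 58 members (62.1%) were at least 2-fold higher in MES than in ESC, where 11.1% of all genes were, and 5 (8.62%) were at least 2-fold lower, where 11.2% of all genes were. The median log2 difference was 1.21 over the members and 0.05 over all genes. ESC was the lowest of the 4 stages for 40 members (69.0%) and for 32.5% of all genes. A gene under 1 RPKM in ESC is in the table only because it is higher later, and 20 of the 58 members were under 1 RPKM there. Of all 13540 genes, 11412 were at 1 RPKM or more in ESC, so a larger share of the members than of all genes lay under it. Among the 38 members at 1 RPKM or more in ESC, 21 passed 2-fold upward in MES and 5 downward, against 8.80% and 13.3% of all genes at or above that level.

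**Figure D1:**
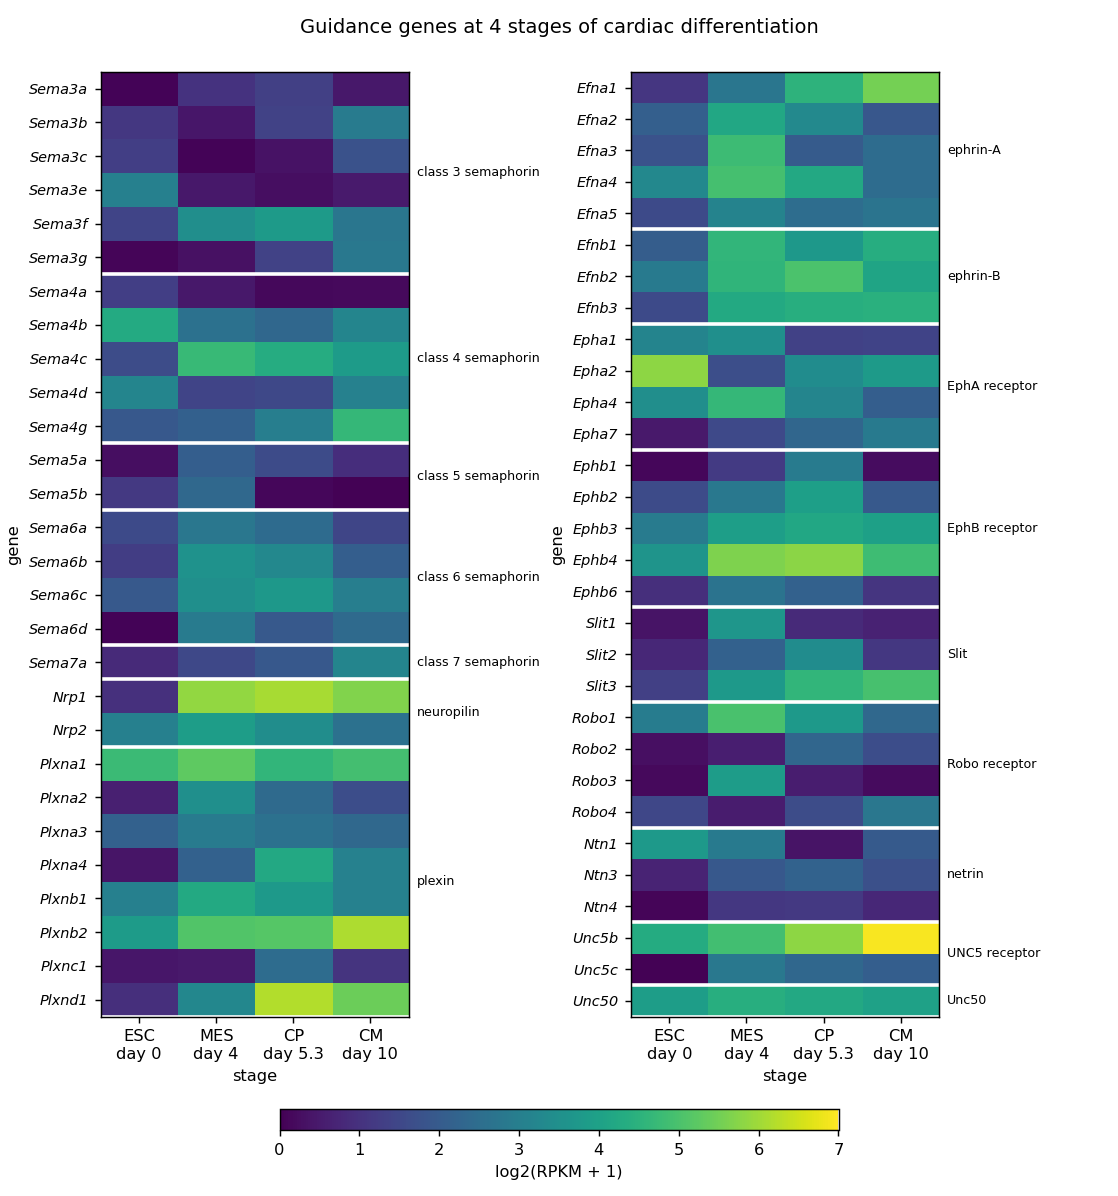
Level of each of the 58 matched genes at the 4 stages (columns, ESC to CM), as log2(RPKM + 1) from 0 (dark) to 7 (bright), grouped by family. ESC is the darkest column for 40 of the 58 genes, and Nrp1, Plxnd1 and Unc5b are among the brightest rows from CP on.

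After MES the differences ran in both directions. Set against MES, CP had 11 members past 2-fold upward and 9 downward (19.0% and 15.5%, against 8.91% and 3.91% of all genes), with a median difference of 0.02. CM had 9 upward and 12 downward when set against CP (15.5% and 20.7%, against 11.3% and 12.8% of all genes), with a median of -0.26, where all genes had -0.15. Between the ends of the series, 27 members were at least 2-fold higher in CM than in ESC and 8 lower (46.6% and 13.8%, against 22.2% and 23.4% of all genes). Over the 4 stages 55 of 58 members had a range of at least 2-fold, where 63.2% of all genes did. The exceptions were Plxna1, Plxna3 and Unc50. By stage of highest value the members split into 6 for ESC, 24 for MES, 16 for CP and 12 for CM, where all genes had 30.5%, 22.8%, 17.0% and 29.8%. Comparisons of neighbouring stages share the stage between them, so these counts are not independent of each other.

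**Figure D2:**
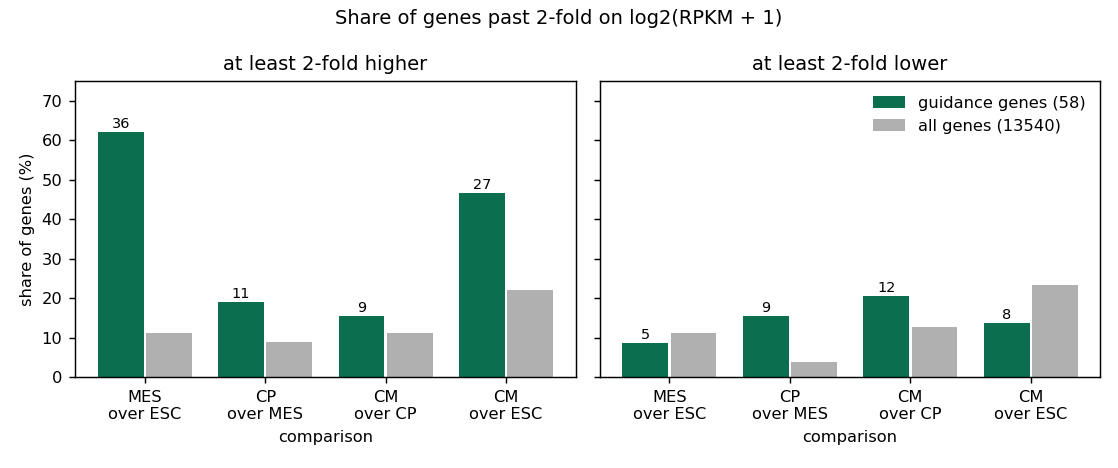
Share of genes at least 2-fold higher (left) or lower (right) in 4 stage comparisons, for the 58 guidance genes (green, number of genes above the bar) and all 13540 genes (grey). The tallest bar is the 62.1% of guidance genes higher in MES than in ESC, beside 11.1% of all genes.

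All 5 ephrins A were at least 2-fold higher in MES than in ESC (11.1% of all genes), and 4 of them had their highest value there. Efna4 stood at 8.63, 29.7, 17.7 and 4.56 RPKM over ESC, MES, CP and CM, and Efna2 at 3.31, 17.4, 8.89 and 2.75 RPKM. Both were thus back below their ESC level in CM. Efna3 had the narrowest peak, with 2.38, 26.8, 3.06 and 4.56 RPKM, and its CP value was below its MES value by 2.78 on the log2 scale. Efna1 (ENSMUSG00000027954), a ligand of EPHA2 that is known in vessels, was instead higher at each later stage, with 1.18, 5.71, 22.2 and 45.1 RPKM, a ratio of CM to ESC of 38.4 (95% counting interval 32.8 to 45.1). It made up 72.2% of the summed ephrin-A RPKM in CM, and Efna4 made up 49.5% in ESC. Efna5, the remaining ephrin A, was also highest in MES.

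Efna1, Efna3 and Efna4 are neighbours within 100 kb, yet Efna3 had its highest value in MES and Efna1 in CM. The 250 bases before the start of each are shown because the neighbours had unlike stage patterns. They are RefSeq sequence of GRCm38.p6, on the minus strand, at chr3:89280952-89281201 (Efna1) and chr3:89322940-89323189 (Efna3), and capitals mark CpG dinucleotides.
Efna1: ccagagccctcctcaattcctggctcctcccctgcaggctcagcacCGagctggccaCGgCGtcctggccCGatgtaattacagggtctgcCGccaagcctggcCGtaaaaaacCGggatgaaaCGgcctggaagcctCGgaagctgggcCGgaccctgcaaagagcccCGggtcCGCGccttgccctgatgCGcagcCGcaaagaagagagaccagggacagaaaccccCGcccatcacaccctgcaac
Efna3: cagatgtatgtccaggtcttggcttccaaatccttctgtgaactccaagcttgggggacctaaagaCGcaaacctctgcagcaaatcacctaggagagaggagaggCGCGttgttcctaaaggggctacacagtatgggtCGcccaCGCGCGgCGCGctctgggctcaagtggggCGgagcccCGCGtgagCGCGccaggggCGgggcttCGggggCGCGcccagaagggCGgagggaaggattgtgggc
The Efna1 window holds 16 CpG and the Efna3 window 19, where the median is 15 over the windows of genes in the expression table and 6 over all windows. RefSeq gives each of these genes 2 start windows, of which 1 is shown. In the GENCODE annotation 14.1% of the Efna3 exon bases and 10.5% of the Efna4 exon bases overlap another gene, and it is not stated whether reads were counted by strand, so reads of a gene and of its overlapping neighbour may not have been kept apart there.

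The EphA receptors were divided, with 2 of 4 highest in MES, 1 in ESC and 1 in CM. Epha2 (ENSMUSG00000006445), a receptor of EFNA1, was the highest of all members in ESC, with 55.1, 2.22, 9.52 and 13.1 RPKM over ESC, MES, CP and CM. MES was the low point, 4.12 below ESC on the log2 scale, at a stage when the 5 ephrins A summed to 87.5 RPKM against 17.5 RPKM in ESC. Efna1 made up 5.71 RPKM of that MES sum and, like Epha2, was higher in CP and in CM, at 22.2 and 45.1 RPKM. Epha4, which binds ephrins of both types, peaked in MES with 10.0, 24.3, 8.10 and 3.24 RPKM. Epha1 stood at 7.99, 10.1, 1.55 and 1.66 RPKM, high in the first pair of stages and low in the later ones, and 6.01% of its exon bases overlap another gene. Epha7 was higher at each stage, with 0.403, 1.91, 3.95 and 6.27 RPKM. As a sum the 4 EphA receptors stood at 73.5, 38.5, 23.1 and 24.2 RPKM, highest in ESC.

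The ephrins B and Ephb4 were lower in ESC than at any later stage. All 3 ephrins B were at least 2-fold higher in MES than in ESC and in CM than in ESC (11.1% and 22.2% of all genes). Efnb1 stood at 3.16, 23.3, 12.3 and 19.4 RPKM over ESC, MES, CP and CM, Efnb2 at 6.38, 23.1, 31.2 and 15.9 RPKM and Efnb3 at 1.98, 18.2, 19.8 and 20.8 RPKM. Ephb4, the venous partner of EFNB2, had the same order of stages as Efnb2 with CP highest and ESC lowest, at 11.3, 49.1, 54.1 and 27.5 RPKM, and it led the EphB receptors at every stage. Ephb3 stood at 6.54, 14.0, 17.4 and 14.9 RPKM, a ratio of MES to ESC of 2.15 (2.03 to 2.27) that lies just short of 2-fold once the pseudocount is added.

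Ephb1 and Ephb2 were highest in CP, intermediate in MES and low in ESC and CM. Ephb1 stood at 0.0818, 1.26, 6.46 and 0.171 RPKM, and Ephb2 at 2.04, 6.02, 14.4 and 2.86 RPKM. In CM they were lower than in CP by 2.67 and 2.00 on the log2 scale, and the CM value of Ephb1 rests on 98 reads against 2716 in CP. Ephb6, whose kinase domain lacks activity, had its highest value in MES and reached 5.30 RPKM. Of the 5 EphB receptors, 3 were at least 2-fold lower in CM than in CP and 0 higher, where 12.8% and 11.3% of all genes were.

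**Figure D3:**
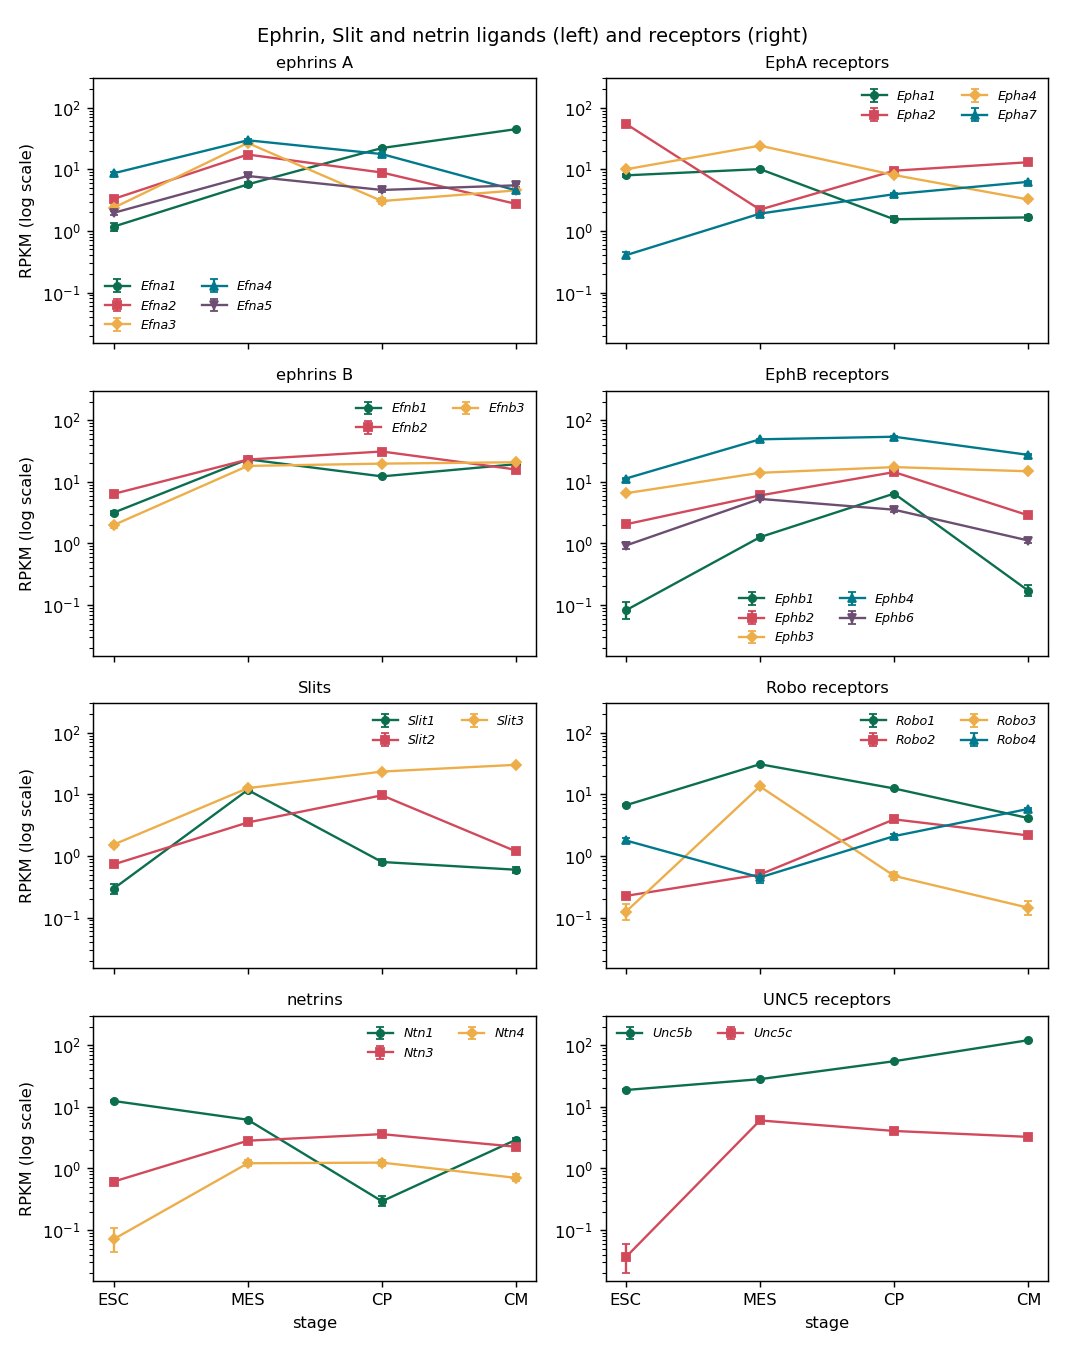
RPKM on a log axis at the 4 stages for ephrin, Slit and netrin ligands (left) and their receptors (right), with 95% Poisson intervals that cover counting error only. Epha2 is lowest in MES at 2.22 RPKM, where 4 of the 5 ephrins A are highest, while Efna1 is highest in CM at 45.1 RPKM. Robo3 and Slit1 peak in MES at 13.5 and 11.8 RPKM, and Unc5b is higher at each stage up to 121 RPKM in CM.

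The 3 Slit genes each had a different peak. Slit1 (ENSMUSG00000025020) was highest in MES, at 0.295, 11.8, 0.799 and 0.598 RPKM over ESC, MES, CP and CM. Slit2 was highest in CP, at 0.729, 3.50, 9.67 and 1.19 RPKM, and its CM value was 2.29 lower than its CP value on the log2 scale. Slit3, the Slit best known from heart and diaphragm development, was higher at each stage, at 1.53, 12.6, 23.5 and 30.3 RPKM. The makeup of the ligand pool changed with this: the Slit sum stood at 28.0, 34.0 and 32.1 RPKM in MES, CP and CM, of which Slit3 was 45.2%, 69.2% and 94.4%.

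Among the receptors, Robo1 stood at 6.66, 30.9, 12.5 and 4.13 RPKM over ESC, MES, CP and CM, highest in MES. Robo2 was highest in CP, at 0.225, 0.50, 3.93 and 2.15 RPKM. Robo3 (ENSMUSG00000032128), a divergent Robo that in mammals does not bind Slits with high affinity and is best known from commissural neurons, was high in MES and under 0.5 RPKM at the other stages, with 0.123, 13.5, 0.475 and 0.144 RPKM. Its MES value was 109 times its ESC value (82.3 to 148) and its CP value 0.0353 times its MES value (0.0299 to 0.0413). Robo4, the endothelial Robo, was lowest where Robo3 was highest, at 1.79, 0.448, 2.10 and 5.81 RPKM. In CM it stood highest of the 4 Robo genes. The Robo sum was 12.2 RPKM in CM and 45.4 RPKM in MES, beside Slit sums of 32.1 RPKM in CM and 28.0 RPKM in MES.

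Robo3 and Robo4 are also neighbours within 100 kb. The 250 bases before each start, again from RefSeq on GRCm38.p6, are shown as the pair with opposite extremes in MES. Robo3 lies on the minus strand at chr9:37433176-37433425 and Robo4 on the plus strand at chr9:37401722-37401971, and capitals mark CpG dinucleotides.
Robo3: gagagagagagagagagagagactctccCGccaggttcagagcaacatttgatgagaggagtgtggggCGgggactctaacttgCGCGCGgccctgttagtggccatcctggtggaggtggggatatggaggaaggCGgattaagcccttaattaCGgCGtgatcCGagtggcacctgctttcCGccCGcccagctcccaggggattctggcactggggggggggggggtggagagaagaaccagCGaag
Robo4: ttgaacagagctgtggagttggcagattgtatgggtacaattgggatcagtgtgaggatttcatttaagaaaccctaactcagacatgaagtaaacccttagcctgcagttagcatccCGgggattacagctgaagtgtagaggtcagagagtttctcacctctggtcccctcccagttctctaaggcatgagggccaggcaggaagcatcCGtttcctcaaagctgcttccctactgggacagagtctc
The Robo3 window holds 12 CpG and 61.2% G and C, and the Robo4 window 2 CpG and 49.6%. Windows were found for 50 of the 58 members, 66 in all, with a median of 15.5 CpG. Short motifs of factors known in mesoderm, heart and endothelium were searched in each window on both strands. The T-box core AGGTGT occurred in 5 of the 66 member windows (7.58%), against 9.64% of the 11889 windows of genes in the expression table and 11.8% of all 32851 windows in the RefSeq set. For the GATA core AGATAA the numbers were 2 member windows (3.03%), against 5.91% and 9.99%. For the ETS core CCGGAA they were 7 member windows (10.6%), against 20.5% and 12%. None of the 4 windows printed here holds any of the 3. The members without a window are Efnb3, Ntn1, Plxna1, Plxna4, Sema3b, Sema3f, Sema6a and Slit1.

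The leading class 3 semaphorin differed between stages. Sema3e, which binds PLXND1 without a neuropilin, led in ESC and was low afterwards, at 7.20, 0.373, 0.202 and 0.408 RPKM over ESC, MES, CP and CM. Sema3f, a ligand of NRP2, led in MES and CP, at 1.69, 10.1, 13.1 and 5.66 RPKM. In CM Sema3b and Sema3g joined it, at 1.18, 0.348, 1.58 and 6.55 RPKM for Sema3b and 0.0731, 0.238, 1.60 and 6.03 RPKM for Sema3g, which is known from arterial endothelium. Sema3g in CM was 82.4 times its ESC value (55.7 to 128), with 2421 reads against 25. Sema3c, the outflow tract ligand, was also highest in CM, at 2.42 RPKM, against 1.47 RPKM in ESC. Sema3a, a ligand of NRP1, peaked at 1.49 RPKM in CP. The sum of the 6 genes lay between 11.7 and 21.4 RPKM at all stages.

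As a sum counted per length, the neuropilins stood above these ligands from MES on, with 71.4 RPKM in MES beside 12.2 RPKM for the 6 class 3 genes. Nrp2 alone was below its ligand Sema3f in CP (9.81 against 13.1 RPKM) and in CM (5.07 against 5.66 RPKM). Nrp1 (ENSMUSG00000025810), which also binds VEGF, stood at 0.970, 57.4, 66.7 and 49.7 RPKM over ESC, MES, CP and CM. Its difference between MES and ESC of 4.89 was the largest of all members on the log2(RPKM + 1) scale, but on plain ratios its 59.2 (52.3 to 67.2) was below those of Unc5c, Sema6d and Robo3, and at a pseudocount of 0.1 Nrp1 had 5.75 and Robo3 5.93. Nrp2 had a narrower range, at 7.33, 14.0, 9.81 and 5.07 RPKM, so the neuropilin sum was 80.5% Nrp1 in MES and 88.3% Nrp2 in ESC. Plxnd1 (ENSMUSG00000030123), the endothelial plexin, stood at 0.917, 8.53, 71.5 and 42.3 RPKM, with ratios of 9.29 for MES to ESC (8.46 to 10.2) and 8.39 for CP to MES (8.11 to 8.68), and was the highest member in CP. Sema3e, its ligand, was lowest in that stage, with 99 reads and 0.202 RPKM.

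The 4 plexins A differed widely in range. Plxna1 stayed within 2-fold, at 26.6, 37.4, 23.4 and 28.8 RPKM over ESC, MES, CP and CM, and 10.7% of its exon bases overlap another annotated gene. Plxna2 peaked in MES, at 0.533, 10.2, 4.36 and 2.15 RPKM, and Plxna4 in CP, at 0.319, 3.55, 17.6 and 7.50 RPKM. The class 6 semaphorins, transmembrane ligands of plexins A, were all at least 2-fold higher in MES than in ESC, where 11.1% of all genes were. Sema6d, a ligand of PLXNA1 studied in heart morphogenesis, stood at 0.0465, 6.47, 2.88 and 4.31 RPKM, a ratio of MES to ESC of 139 (101 to 198). Sema6b stood at 1.41, 10.8, 8.70 and 3.29 RPKM and Sema6c at 2.86, 10.1, 12.2 and 7.01 RPKM. Sema6a, a ligand of PLXNA2 and PLXNA4, peaked in MES at 5.88 RPKM.

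The transmembrane class 4 semaphorins were divided: set against ESC, 1 of the 5 passed 2-fold upward in MES and 2 downward (all genes 11.1% and 11.2%). Sema4b stood at 18.4, 5.13, 4.10 and 8.17 RPKM over ESC, MES, CP and CM, highest in ESC. Sema4d, the classic ligand of PLXNB1, was likewise low in MES and CP, at 8.09, 1.70, 1.85 and 7.47 RPKM. Sema4c led the class in MES and CP, at 2.09, 25.1, 19.1 and 13.5 RPKM, with 7.27% of its exon bases overlapping another gene. Sema4g led in CM, at 2.83, 3.41, 6.97 and 24.3 RPKM. Plxnb2, a receptor of several class 4 semaphorins, had its highest value in CM, at 13.3, 33.6, 34.3 and 69.1 RPKM, and Plxnb1 in MES, at 7.35, 18.1, 12.8 and 7.43 RPKM. In MES the ligand Sema4d was thus low, not apart from CP by counting error (ratio of CP to MES 1.09, 0.982 to 1.21), and its receptor Plxnb1 at its highest.

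Smaller classes completed the semaphorins. Sema5b stood at 1.23, 4.16, 0.0958 and 0.0239 RPKM over ESC, MES, CP and CM, the widest ratio between highest and lowest stage of all members, at 174, with 15 reads in CM. Sema7a, which is anchored by a lipid and binds PLXNC1 and integrins, was higher at each stage, at 0.789, 1.86, 2.81 and 8.13 RPKM. Plxnc1 was high in CP alone, at 0.348, 0.400, 4.59 and 1.06 RPKM, so ligand and receptor did not peak together. Sema4a was highest in ESC with 1.45 RPKM and Sema5a in MES with 3.30 RPKM.

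**Figure D4:**
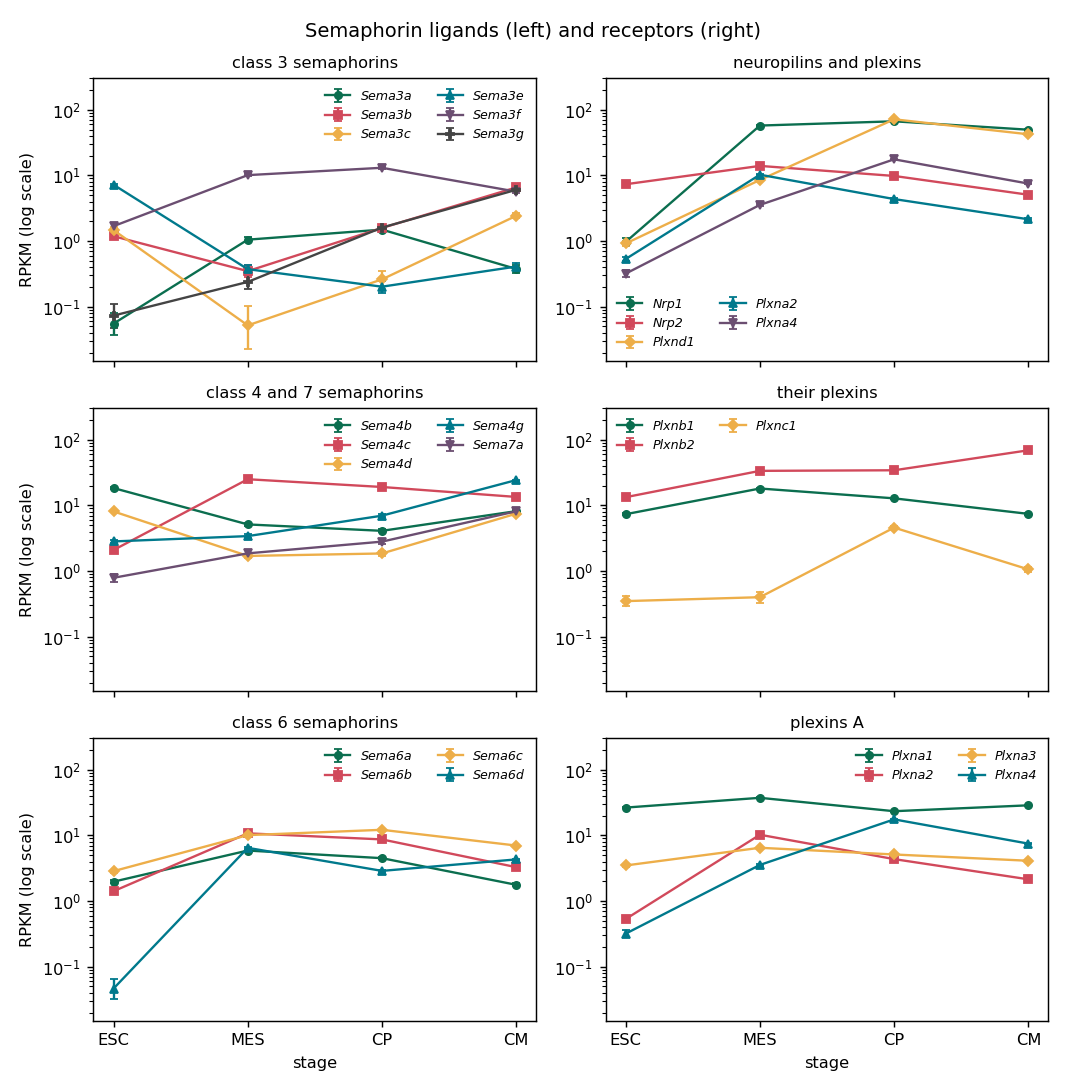
RPKM on a log axis at the 4 stages for semaphorins (left) and for neuropilins and plexins (right), with 95% Poisson intervals that cover counting error only. Sema3e leads the class 3 genes in ESC at 7.20 RPKM, Sema3f in CP at 13.1 RPKM and Sema3b in CM at 6.55 RPKM, while Nrp1 and Plxnd1 stand at 66.7 and 71.5 RPKM in CP.

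Ntn1, which led the netrins at every stage but CP, was highest in ESC, and the leading UNC5 receptor was highest in CM. Ntn1, the founding netrin, stood at 12.5, 6.19, 0.294 and 2.94 RPKM over ESC, MES, CP and CM, and its CP value was 0.0474 times its MES value (0.0391 to 0.0571). Unc5b (ENSMUSG00000020099), a netrin receptor of endothelial and other cells that also binds ROBO4 and FLRT proteins, was higher at each stage, at 18.8, 28.2, 55.3 and 121 RPKM, and was the highest of all members in CM. The netrins summed to 5.89 RPKM in CM and 5.15 RPKM in CP, the 2 UNC5 receptors to 125 RPKM in CM and 59.3 RPKM in CP. Unc5c stood at 0.0362, 6.03, 4.07 and 3.26 RPKM, with 15 reads in ESC, a ratio of MES to ESC of 167 (101 to 299). Ntn3 was highest in CP, where it led the netrins with 3.61 RPKM, 70.1% of their sum. Ntn4 had 1.25 RPKM in CP and 1.22 RPKM in MES, and both genes stayed under 4 RPKM. Unc50, which shares letters and not function, varied least of the 58, at 13.8, 19.9, 17.6 and 15.2 RPKM.

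The genes that work beside these ligands and receptors were less uniform. Of 56 listed coreceptors, further ligands and cytoplasmic effectors, 49 were in the table. Counted as at least 2-fold higher and lower, they gave 13 and 3 of 49 for MES over ESC, where 11.1% and 11.2% of all genes passed, and 7 and 2 for CP over MES (all genes 8.91% and 3.91%). For CM over CP there were 4 and 11 (all genes 11.3% and 12.8%), and for CM over ESC 12 and 4 (all genes 22.2% and 23.4%). The median difference between MES and ESC was 0.42, where the guidance members had 1.21 and all genes 0.05. Neo1, which encodes the netrin receptor neogenin, stood at 6.94, 16.7, 18 and 19.8 RPKM over ESC, MES, CP and CM. Rgma, a neogenin ligand, peaked in MES at 1.12, 20.7, 5.62 and 3.89 RPKM. Dpysl5 and Crmp1, of the collapsin response mediators that act in semaphorin signalling, stood at 4.11, 54.2, 17.4 and 4.17 RPKM and at 25.5, 18, 13.1 and 1.54 RPKM.

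The widest range of that list belonged to Mical2, whose product oxidises actin and drives SRF target genes, at 0.539, 0.158, 1.76 and 43.9 RPKM over ESC, MES, CP and CM. Rnd2, a small GTPase that binds plexins, was highest in CP at 6.51, 4.81, 52.9 and 20.7 RPKM. Ablim1, an actin-binding protein of netrin signalling in worms, was higher at each stage, at 0.625, 5.41, 8.71 and 10.6 RPKM. Of the 39 cytoplasmic effectors in the table, the stage of highest value was ESC for 6, MES for 6, CP for 15 and CM for 12. All genes had 30.5%, 22.8%, 17.0% and 29.8%.

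Markers of other cells moved with several members. Between CP and MES, 10 of 12 endothelial genes were at least 2-fold up in CP and 0 down, with Cdh5 at 71.3 RPKM in CP and 0.215 RPKM in MES, and Emcn was listed at 0 in ESC and MES. Plxnd1, Robo4 and Sema3g, all expressed by endothelium, were at least 2-fold higher over the same step, and so was Efna1 (ratio of CP to MES 3.9). Unc5b, Efnb2, Nrp1 and Ephb4, also named here with vessels or endothelium, differed by under 2-fold, with ratios of 1.96, 1.35, 1.16 and 1.1. The endothelial sum of 205 RPKM in CM and 423 RPKM in CP stood beside 42.3 RPKM in CM and 71.5 RPKM in CP for Plxnd1. Unc5b, Robo4, Sema3g and Efna1 were higher in CM than in CP, a comparison in which the endothelial list was mixed: 1 of 12 was at least 2-fold up (Eng, with 43.6 RPKM in CM and 21 RPKM in CP) and 5 down, and 3 (Eng, Flt1 and Emcn) had their highest value in CM. Blood genes had a narrower peak: 8 of 9 passed 2-fold upward in CP over MES and 8 downward in CM over CP, with Hba-x listed at 0 in ESC and MES and Hbb-bh1 in ESC. The same steps also raised other lists. Cardiomyocyte genes passed 2-fold upward in 8 of 9 for CP over MES and 9 of 9 for CM over CP. For smooth muscle genes the numbers were 5 of 6 and 3 of 6, with 0 downward in either list.

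The primitive streak genes, all 8 of them past 2-fold upward in MES over ESC and downward in CP over MES, had the same stage of highest value as Slit1, Robo3, Efna3 and Sema5b, and Msgn1 was listed at 0 in CP and CM. Of the 6 neural genes in the table, of 14 listed, 0 passed 2-fold upward in MES over ESC and 4 downward. They summed to 224, 45.2, 29.7 and 15.7 RPKM over ESC, MES, CP and CM, but most of the ESC sum was Tubb3 (97.2 RPKM) and Stmn2 (101 RPKM). Otx2 was highest in MES, at 14.3 RPKM against 8.39 RPKM in ESC, and was listed at 0 in CM. Pax6 and Nes were highest in CP, at 4.21 and 16.8 RPKM, and the other 3 in ESC. Of 9 endoderm genes, 3 passed 2-fold upward in MES over ESC and 2 downward. Those up were the endoderm factors Sox17, at 9.34 RPKM in MES and 0.104 RPKM in ESC, Foxa1, at 5.00 RPKM in MES and 0.371 RPKM in ESC, and Foxa2, at 6.88 RPKM in MES and 0.125 RPKM in ESC. Foxa1 and Foxa2 had their highest value in MES, as did Slit1, Robo3 and Efna3 among the 24 members highest there. Sox17 was highest in CP, at 11.5 RPKM, and Foxa3 was slightly lower in MES (0.981 RPKM) than in ESC (1.11 RPKM). The endoderm list summed to 432, 228, 261 and 176 RPKM, mostly epithelial genes such as Epcam, Cdh1, Krt8 and Krt18, with Ttr listed at 0 in ESC. The 6 smooth muscle genes summed to 286, 20.1, 634 and 2485 RPKM. For the 9 fibroblast and matrix genes the sums were 21.9, 58.1, 98.8 and 268 RPKM, with Lum listed at 0 in ESC, MES and CP. Pdgfra alone supplied 48.3 RPKM of their MES sum and 54.4 RPKM of their CP sum, but only 0.206 RPKM of their ESC sum. Set against ESC, 3 of the 9 passed 2-fold upward in MES and 1 downward (Col1a1), and their median log2 difference was -0.08. The part of any of these cells in the guidance gene values was not tested.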

How the data were processed

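Messenger RNA of 8 libraries, a pair for each of 4 stages, was purified on beads, fragmented, amplified by PCR and read on an Illumina GAIIx sequencer, according to the labels. Reads were aligned with Novoalign 2.07.00 to mm9, per the submitters' processing notes. Which counter and annotation were used, whether strand was read and how libraries were merged is not given in the sources used here. RPKM values, so named per the file headers, were deposited by the authors as 1 column per stage.

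Members were taken by a pattern on the gene symbol, and members and lists were chosen with earlier results of these data known. With 1 value per stage no test was run. Log2 differences of RPKM + 1 and a minimum of 2-fold describe the values, and the share of all 13540 genes past the same limit is given as background. Values are printed for members that reach 10 RPKM or range at least 4-fold on that scale. Others (Sema3a, Sema3c, Sema4d and Ephb6 among them) were named after their values were seen. Of the effector list, the 6 genes of widest range were named, and Neo1 after its values were seen. Depth and reads were recovered as the shortest whole gene model length (150 to 40000 bases) at which all 4 values are whole reads (relative tolerance 1.5e-07), with exon lengths from GENCODE M21, for 99.6% of genes, a step tested on simulated data. A recovered count can be a divisor of the true one, which widens its interval. Intervals are 95% exact Poisson for a value and exact conditional binomial for a ratio, and cover counting error only. No member shares over 10.8% of the 32-base words of its longest M21 transcript with other genes, and Ntn3 was not checked. Computation used Python 3.11.15, pandas 2.3.3 and scipy 1.17.1.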

Additional observations from a re-analysis of the deposited data

How the results depend on the processing

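Alternative runs used a pseudocount of 0.1 or 0.5, a 4-fold minimum, or only genes that reach 3 RPKM somewhere. Further runs used quantile normalization or scaling of each stage to a sum of 1000000. Only quantile normalization and scaling can change the sign of a difference, and under them no called difference of a member did. The sizes did move: beyond counting error, 175 member differences moved with scaled sums and 57 did not. With quantile normalization 85 moved and 147 did not, and at a pseudocount of 0.1 the numbers were 161 and 71. Between MES and ESC, 35 to 39 members were at least 2-fold higher under the alternative runs that kept 2-fold, against 36 as reported. The share of all genes in those runs lay between 10.5% (quantile normalization) and 16.8% (pseudocount of 0.1), against 11.1% as reported. The members lower in MES than in ESC, 5 as reported, numbered 9 at a pseudocount of 0.1 and 8 with scaled sums, where 15.5% and 14% of all genes were, so their share was then near that of all genes. Members lower in CM than in CP, 12 as reported, numbered 19 with scaled sums (all genes 20.7%), where the median of all genes moved to -0.29, against -0.15 as reported. The balance in CM over CP was 10 higher and 12 lower with quantile normalization (all genes 12.4% and 11.6%). At a minimum of 4-fold, which must give fewer, 17 members were higher and 2 lower in MES than in ESC (all genes 2.78% and 3.47%), 2 higher and 6 lower in CP than in MES (2.74% and 0.871%), 0 higher and 2 lower in CM than in CP (3.23% and 2.36%), and 16 higher and 1 lower in CM than in ESC (8.73% and 7.75%). Filters chosen after seeing the data leave fewer members. Of 43 members with a mean of at least 3 RPKM, 30 were higher and 3 lower in MES than in ESC (12.3% and 8.77% of all such genes), 6 higher in CP than in MES (8.78%), 5 higher in CM than in CP (11%), and 5 lower in CM than in ESC (23.9%). Of 38 members at 1 RPKM or more in ESC, 21 were higher in MES than in ESC (8.80% of all such genes), 4 higher in CP than in MES (5.93%), 7 lower in CM than in CP (12.3%) and 16 higher in CM than in ESC (16.7%). A range of at least 2-fold was reached by 35 of these 38, and the share of all such genes was not computed. No paired analysis was possible because the table has 1 column per stage, and for the same reason no replicate could be left out. Depth limits Sema3c in MES (8 reads), Unc5c in ESC (15) and Sema5b in CM (15).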
